A study of Bos taurus with 147 samples.

Results

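The genes described here are 7 genes typical of slow oxidative muscle fibres, TNNT1, TNNC1, MYL2, CSRP3, MYBPC1, MB and CA3, in bovine longissimus muscle before and after birth. They were found on a cDNA array as the elements with a single gene name equal to 1 of these symbols, which gave 246 of 21168 elements and 7 of the 976 genes named on the array. The elements of a gene were averaged within each array, and all 7 genes passed the filter on missing values. The platform annotation gives them the gene identifiers 282095 (TNNT1), 509486 (TNNC1), 505519 (MYL2), 540407 (CSRP3), 510763 (MYBPC1), 280695 (MB) and 513212 (CA3), on 18, 26, 68, 18, 20, 50 and 46 elements in that order. It names no genome build, so positions are not given. The symbols were given as a list, which was chosen with earlier results of these data known.

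Skeletal muscle fibres differ in the isoforms of their contractile proteins and in how they make ATP. Slow oxidative fibres contract slowly, resist fatigue, burn fuel in mitochondria and share many of their contractile isoforms with the heart, while fast fibres carry a separate set of isoforms and lean on glycolysis. In the mammalian fetus primary fibres form first and secondary fibres form around them, and much of the adult fibre pattern is set late in gestation and after birth. TNNT1 is the slow skeletal troponin T, which ties the troponin complex to tropomyosin, and TNNC1 is the calcium-binding troponin C of slow and cardiac muscle. MYL2 is the regulatory myosin light chain of slow and ventricular muscle, and MYBPC1 is the slow-type myosin-binding protein C of the thick filament. CSRP3 is muscle LIM protein, found at the Z-disc. MB is myoglobin, which stores oxygen, and CA3 is carbonic anhydrase 3, an abundant cytosolic protein of slow fibres that fat cells also make.

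The fetuses and newborn calves came from Hereford dams. PH animals were sired by Piedmontese bulls homozygous for a missense mutation of myostatin (GDF8), a brake on muscle growth, and WH animals by Wagyu bulls without it. Muscle was taken at d 60, d 135 and d 195 of gestation and from the newborn, in both crosses, and these 8 groups were compared on 25 arrays. At d 60 no separate longissimus could be made out, so tissue was cut from the place where it would form, and overlying skin was hard to remove. All fetal RNA was linearly amplified before labelling, a step for which the study names a possible bias in a d 60 sample from a PH fetus. Every comparison with d 60 rests on these samples, and the part of tissue and amplification in it was not tested. A further 20 arrays compared muscle of Piedmontese x Hereford (PH) and Wagyu x Hereford (WH) animals at time points coded T1, T2 and T3. Their ages and the genotypes of their sires are not given in the sources used here. The d 60 fetuses of a cross shared a single sire, which in WH also sired all d 135 fetuses and in PH was used at no other stage. The d 195 PH fetuses came from a single bull and included twins. All newborn calves were female, while the fetuses included both sexes. Sire and sex thus ran in part with stage, and their part in the results was not tested. The array was made from muscle and fat of an adult steer and did not carry GDF8.

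Each array carried 1 group in Cy5 and another in Cy3, and its value for a gene is a log2 ratio of the groups. In the fetal loop each link between neighbouring groups had 3 arrays, or 4 for WH d 195 over d 135, all with the same dye orientation. Along the PH stages the later group was always in Cy3, and along the WH stages always in Cy5, also from T1 to T3. A set of PH arrays and a set of WH arrays of 1 step therefore differ in dye as well as in cross. The fit carries a dye term, which lay between -0.03 and 0.17 for the 7 genes in the fetal set and between -0.07 and 0.13 in the later set, but the single array values are not adjusted for it. Where single PH and WH arrays of a step in time are set side by side, dye and cross cannot be told apart. PH and WH met on an array only at d 60 and in the newborn. On these arrays PH was always in Cy3 at d 60 and always in Cy5 in the newborn. In the later experiment each step in time had 2 arrays per cross and each comparison of the crosses had 4. The direction of the ratios is likely rather than stated, being read from the dyes in the array labels and the loop. Read this way, 6 of 6 measured skeletal muscle markers were higher in the newborn than at d 60 (median log2 ratio 2.92) and 6 of 6 measured fibroblast and matrix markers were lower (median -3.43). Array numbers are not tied to animals, and arrays that share a group may share animals, so the p-values measure the spread between arrays.

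The fetal arrays held values for 19404 to 20771 elements. Of the 8 fetal arrays numbered 2, 7 held 19404 to 20521 values, fewer than any other fetal array. The later arrays held 20794 to 20946. Before centring, array medians ran between -0.48 and 0.46 in the fetal set and between -0.32 and 0.14 in the later set. Markers of cardiac muscle, blood, cartilage, epidermis and nerve had 0 measured members under a gene name. PH T1 RNA hybridised against itself on 1 array read between -0.12 for CA3 and 0.14 for MYL2, which shows the dye reading of these genes where no difference between samples exists.

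Between d 60 and birth, as the mean of both crosses, MB, CSRP3, TNNC1, TNNT1 and MYBPC1 rose, or 5 of 7 genes, beside 22.6% of all 16659 features called higher in this comparison. The median of the 7 log2 ratios was 1.80, with a range of 0.67 to 3.32, against a median of -0.07 over all features. MYL2 and CA3 had positive ratios that did not pass. Beside the fall of the matrix markers over the same stages, adipocyte markers were lower in 2 of 6, endothelial and mural markers in 1 of 3, and immune markers were higher in 2 and lower in 1 of 5. In whole muscle, fewer cells of a type and less RNA per cell cannot be told apart, and the part of the changing tissue make-up in these results was not tested.

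TNNT1, the slow troponin T, changed late. From d 60 to d 135 the PH arrays gave log2 ratios of 0.47, 0.21 and -0.25 and the WH arrays 0.35, 0.05 and 0.07. From d 135 to d 195 the PH arrays gave 0.34, 0.69 and 0.70 and the WH arrays 0.79, 0.72, 0.35 and 0.84. From d 195 to the newborn they were 1.44, 1.44 and 0.96 in PH and 0.87, 0.49 and 0.95 in WH. The first step thus lay around 0, while every array of the later steps was above 0. Newborn over d 60, TNNT1 reached 1.80 (SE 0.18, adjusted p = 4.79e-08, limma), a 3.48-fold level. The d 135 over d 60 step was 0.15 (SE 0.11, adjusted p = 0.299), the next step 0.63 (SE 0.10, adjusted p = 1.55e-04) and the step to the newborn 1.03 (SE 0.11, adjusted p = 6.50e-08). The 9 ESTs of TNNT1, clone sequences spread over 18 elements, ran between 1.58 and 2.25 from d 60 to the newborn.

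TNNC1, its calcium-binding partner, rose earlier and again between d 195 and the newborn. On the PH arrays the d 135 over d 60 log2 ratios were 0.58, 0.94 and 0.49, and on the WH arrays 0.72, 0.08 and 0.79. The newborn over d 195 ratios were 1.02, 1.16 and 0.91 in PH and 0.61, 0.58 and 1.06 in WH. All 12 values were above 0, and the PH arrays of the last step overlapped with 1 of the WH arrays. The fitted change was 1.85 from d 60 to the newborn (SE 0.24, adjusted p = 1.30e-06), of which 0.60 came by d 135 (SE 0.14, adjusted p = 0.00229) and 0.89 after d 195 (SE 0.14, adjusted p = 1.93e-05). The middle step, 0.36, did not pass (adjusted p = 0.0614, limma), though every array lay above 0. Its values were 0.206, 0.495 and 0.166 in PH and 0.137, 0.604, 0.414 and 0.58 in WH. This step passed with arrays scaled to one spread (0.445, adjusted p = 0.0219) and with array weights (0.356, adjusted p = 0.0106). It also passed without array 1 of both cross links (0.361, adjusted p = 0.0207), an alternative chosen after seeing the data. The d 135 call was lost when array 3 of every link was left out (0.58, adjusted p = 0.0519).

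MB had the largest change of the 7. Myoglobin log2 ratios were 1.27, 1.06 and 0.99 on the PH arrays of d 135 over d 60, and 0.26, 0.54 and 0.47 on the WH arrays. For d 195 over d 135 the PH arrays gave 0.96, 1.34 and 0.80 and the WH arrays 0.87, 0.39, -0.05 and 0.62. For the newborn over d 195 they gave 1.98, 0.94 and 1.47 in PH and 2.44, 2.05 and 1.94 in WH. Only 1 of 19 values lay below 0. The PH minus WH difference of the first step, 0.63, did not pass (adjusted p = 0.294, limma). The newborn level was 9.96-fold that of d 60 (log2 ratio 3.32, SE 0.24, adjusted p = 1.00e-09), and each of the 3 steps passed as the mean of both crosses, with 0.77, 0.75 and 1.80. In WH alone the first and second step were 0.45 and 0.48 and did not pass (adjusted p = 0.131 and 0.0747). Array weights made both pass (adjusted p = 0.0382 and 0.0046). The second also passed with scaled arrays (adjusted p = 0.023), the median of elements (adjusted p = 0.0477) and without array 1 of both cross links (adjusted p = 0.0332). In PH alone the second step, 1.01 (adjusted p = 0.0024), was lost without centring (adjusted p = 0.0700) and without array 2 of every link (adjusted p = 0.0888). All 24 MB ESTs rose from d 60 to the newborn, between 0.60 and 4.18 with a median of 3.62.

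CSRP3, muscle LIM protein, rose at the ends of the series. The d 135 over d 60 ratios were 0.76, 1.43 and 1.08 in PH and 0.99, 1.19 and 0.98 in WH. The newborn over d 195 ratios were 0.98, 0.08 and 2.11 in PH and 1.87, 0.79 and 2.13 in WH, a wide spread with every array above 0. The change to the newborn was 2.75 (SE 0.36, adjusted p = 2.12e-06), a 6.74-fold level, with 1.07 up to d 135 (SE 0.22, adjusted p = 6.87e-04) and 1.33 after d 195 (SE 0.22, adjusted p = 2.83e-05). The middle step was 0.35 (adjusted p = 0.256, limma) and passed with array weights (0.42, adjusted p = 0.0312).

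MYBPC1 and CA3 followed another course. CA3, the carbonic anhydrase, had log2 ratios of 1.91, 1.53 and 1.61 in PH and 1.70, 2.49 and 1.47 in WH between d 60 and d 135. Between d 195 and the newborn they were -1.28, -0.89 and -1.80 in PH and -0.44, -0.46 and -0.12 in WH. CA3 was thus higher at d 135 on all 6 arrays and lower in the newborn on all 6. The PH minus WH difference of the last step, -0.85, did not pass (adjusted p = 0.211, limma). The rise to d 135 was the largest of the 7 genes in that step, 1.78 (SE 0.19, adjusted p = 9.71e-07), and after d 195 it fell, at -0.83 (SE 0.19, adjusted p = 7.83e-04). In the middle step it was -0.22 (adjusted p = 0.426), and over the whole span 0.73 (SE 0.32, adjusted p = 0.0624). The whole span passed with arrays scaled to one spread (0.99, adjusted p = 0.0431) and with array weights (0.74, adjusted p = 0.0302). It also passed without array 3 of every link (1.07, adjusted p = 0.0319) and without array 1 of both cross links (0.73, adjusted p = 0.0383).

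MYBPC1 arrays read 1.03, 0.24 and 0.34 in PH and 1.36, 1.81 and 1.28 in WH from d 60 to d 135. From d 195 to the newborn they read -0.72, -0.79 and -0.85 in PH and 0.39, 0.36 and -0.71 in WH. The slow myosin-binding protein C thus rose early on all 6 arrays and then had negative values on 4 of 6. The first step was 1.01 (SE 0.19, adjusted p = 3.95e-04), the last -0.39 (SE 0.19, adjusted p = 0.0935), and the whole span 0.82 (SE 0.32, adjusted p = 0.0403). The call over the whole span was lost without centring (0.66, adjusted p = 0.130) and when array 1, 2 or 4 of every link was left out, with values of 0.62, 0.67 and 0.77 and adjusted p of 0.0912, 0.238 and 0.0629.

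MYL2, the slow regulatory light chain, passed in no fetal comparison with all arrays kept and weighted equally. Over the 19 arrays within PH and WH its log2 ratios lay between -0.37 and 1.36, with the highest on array 3 of WH newborn over d 195. Newborn over d 60 it was 0.67 (SE 0.33, adjusted p = 0.103), and none of the 3 steps passed, at 0.25, 0.26 and 0.16. All 31 of its ESTs were above 0 over the whole span, between 0.30 and 1.49, and with array weights the gene passed (0.63, adjusted p = 0.0410). It also passed with array 1 of both cross links left out (0.67, adjusted p = 0.0437), an alternative chosen after seeing the data. In PH alone it passed without array 1 of every link (1.18, adjusted p = 0.0432).

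**Figure D1:**
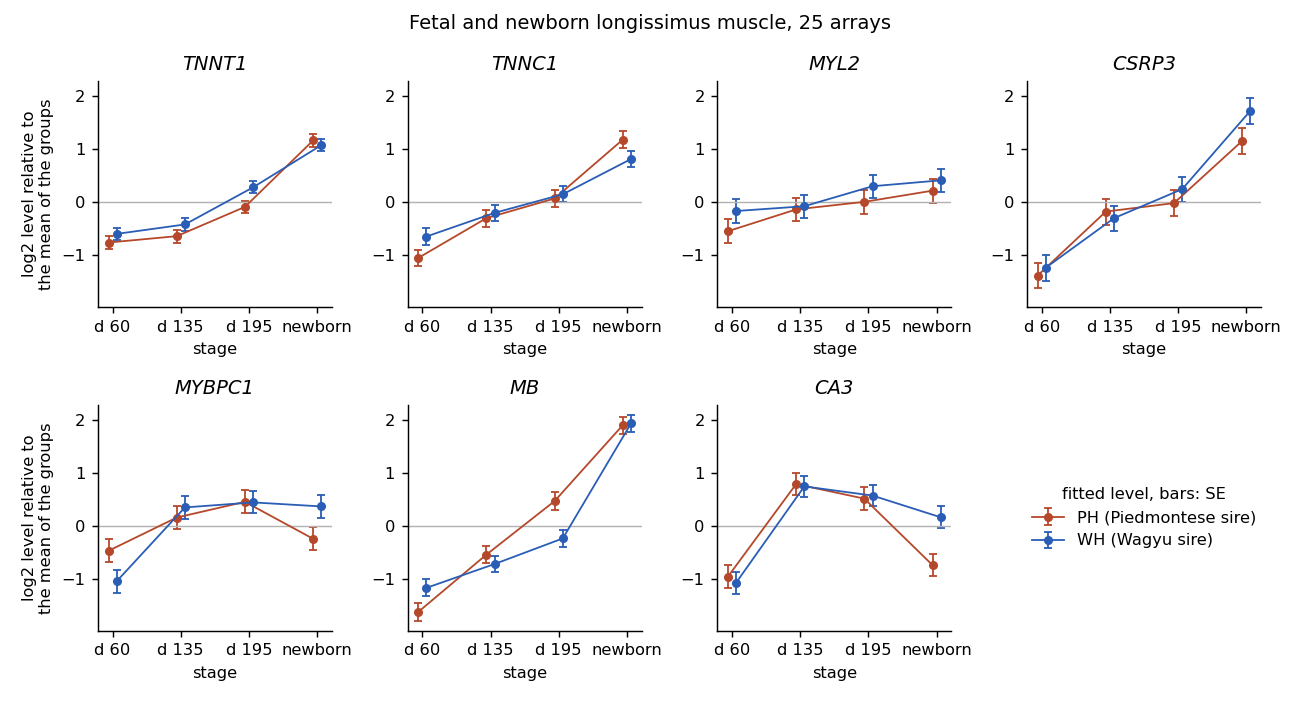
Fitted levels of the 7 genes on the log2 scale (y axis, relative to the mean of the 8 fetal groups) by stage, d 60 to newborn (x axis), for PH and WH, with bars for the SE. MB is lowest at d 60, at -1.63 in PH and -1.17 in WH, and highest in the newborn, while CA3 peaks at d 135 with 0.79 in PH and 0.74 in WH.

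By step, 5 of 7 genes were higher at d 135 than at d 60 (all but TNNT1 and MYL2), beside 14% of all features. At d 195 over d 135 it was 2 of 7, TNNT1 and MB, beside 10.6%. In the newborn over d 195 it was 4 of 7, TNNT1, TNNC1, CSRP3 and MB, beside 26.7%, while CA3 alone was lower, beside 25.8%. Matrix markers moved with the last step most, with 6 of 6 lower and a median of -2.27, against 5 of 6 lower and a median of -0.61 in the first. In the middle step 2 of 6 matrix markers were lower. Of the adipocyte markers, 1 of 6 was higher in the first step, 3 of 6 were lower in the middle step (median -0.30) and 1 of 6 was lower in the last, and CA3, which fat cells also make, passed in the first and the last. Their part in the result was not tested.

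In PH animals alone, 4 of 7 genes were higher in the newborn than at d 60 (TNNT1 1.93, TNNC1 2.24, CSRP3 2.54 and MB 3.53), beside 22.1% of features. In WH animals 6 of 7 were higher, the same 4 with 1.67, 1.46, 2.96 and 3.11 and also MYBPC1 with 1.41 and CA3 with 1.24, beside 20.2%. In PH animals MYBPC1 was at 0.23 and CA3 at 0.22, with adjusted p of 0.637 and 0.643. Array 2 mattered for WH MYBPC1, whose call was lost without it (1.06, adjusted p = 0.103).

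The levels can also be read by group, relative to the mean of the 8 groups. MB stood at -1.63, -0.54, 0.47 and 1.90 in PH from the first stage to the last, and at -1.17, -0.72, -0.24 and 1.93 in WH, with SE of 0.16 throughout. CA3 stood at -0.96, 0.79, 0.51 and -0.74 in PH and at -1.08, 0.74, 0.57 and 0.16 in WH, with SE of 0.21. In both crosses the CA3 levels of d 135 and d 195 did not differ beyond their spread. MYBPC1 stood at -0.47, 0.16, 0.45 and -0.25 in PH and at -1.05, 0.35, 0.44 and 0.37 in WH, with SE of 0.21 to 0.22. In WH the last 3 stages of MYBPC1 did not differ beyond their spread, while in PH the newborn lay below d 195 (-0.70, adjusted p = 0.0311), a call lost without array 2 or 3 (-0.70 and -0.62, adjusted p = 0.132 and 0.155), without centring (-0.69, adjusted p = 0.0560), with arrays scaled to one spread (-0.51, adjusted p = 0.169) and with the median of its elements (-0.50, adjusted p = 0.103).

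The ESTs of a gene mostly ran together, with a median pairwise correlation over arrays of 0.86 for MYBPC1 up to 0.98 for CSRP3. The exceptions were chosen after their values were seen. Of the 7 MYBPC1 ESTs, 1 gave -0.82 from d 60 to the newborn, while the other 6 gave 1.09 to 1.56. Without that EST the gene was at 1.23 (adjusted p = 0.00403) over the whole span. The fall in PH after d 195 then came to -0.38 and did not pass (adjusted p = 0.264), so that call rests on a single clone sequence. Of the 17 CA3 ESTs, 1 gave -0.51 for d 135 over d 60 and 1.12 for the newborn over d 195, opposite to all others, and its median correlation with them was -0.51. Without it CA3 was at 2.00 in the first of these steps and at -1.02 in the second (adjusted p = 2.31e-04).

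**Figure D2:**
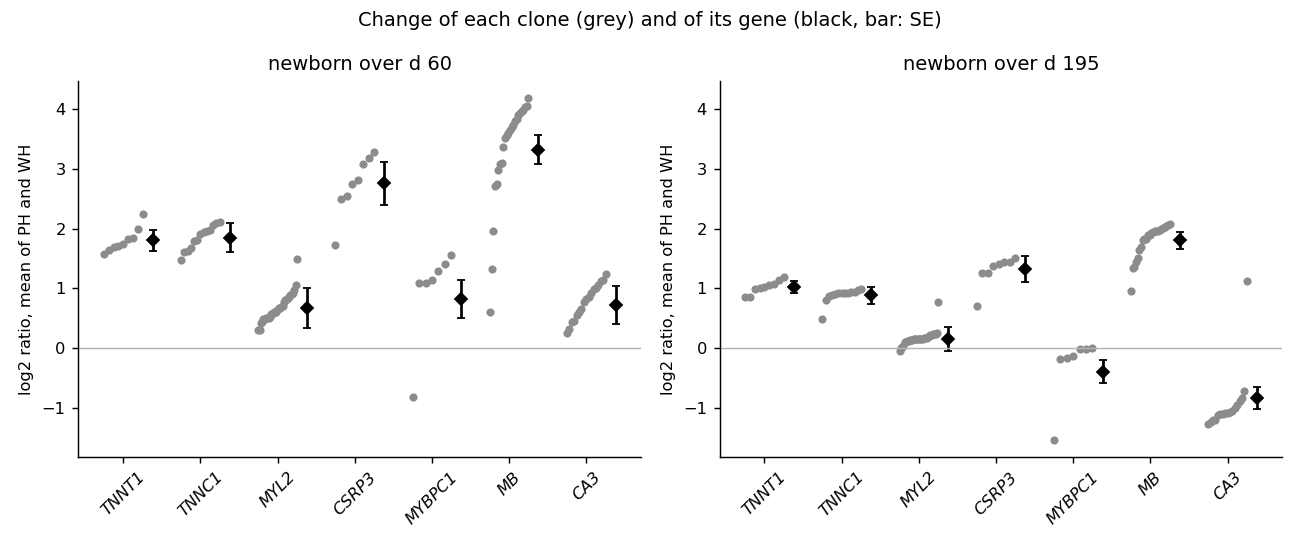
Log2 ratios (y axis, mean of PH and WH) of the single ESTs, grey points, and of their gene, black points with a bar for the SE, for the 7 genes (x axis). All 24 MB ESTs lie above 0 from d 60 to the newborn, 1 of 7 MYBPC1 ESTs lies at -0.82, and 1 of 17 CA3 ESTs runs against the others.

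Of 13 other genes of slow fibres listed, 4 were measured, namely MYL3, the slow essential light chain, PLN, which restrains the calcium pump of slow fibres, ATP2A2, that pump, and TPM3, slow tropomyosin. All 4 were higher in the newborn than at d 60, at 1.34, 1.99, 1.37 and 1.16 in that order, with a median of 1.36. None was higher at d 135 than at d 60, where TPM3 was lower (-0.48, adjusted p = 0.0287). After d 195 all 4 were higher, with a median of 1.63. Of the 15 fast fibre genes listed, 8 were measured, and all 8 were higher in the newborn than at d 60 with a median of 2.23, the furthest being MYOZ1, a Z-disc protein of fast fibres, with 3.42 and MYH1, a fast myosin heavy chain, with 3.17. All 8 were also higher at d 135 and again at d 195, and 5 of 8 in the newborn over d 195. The median of the 7 slow oxidative genes over the whole span, 1.80, lay below that of the fast genes. The lists were set with earlier results of these data known.

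The slow and the fast isoform of 1 protein, troponin T, were both named on the array, as TNNT1 and TNNT3. Their difference on each array needs no scaling between arrays. TNNT1 minus TNNT3 was -0.50 (SE 0.12) for d 135 over d 60, 0.16 (SE 0.11) for d 195 over d 135 and 1.03 (SE 0.12) for the newborn over d 195, on the log2 scale. TNNT3 itself gave 0.65, 0.47 and 0.00 in these steps. TNNT3 thus passed in the first 2 steps and TNNT1 in the last 2. In the middle step the TNNT3 arrays gave 0.399, 1.05 and 1.359 in PH and 0.302, 0.135, -0.325 and -0.086 in WH. In these single values dye and cross cannot be told apart. The dye term of TNNT3 is not among those given above, and its part in the TNNT3 values was not tested. By cross the difference was -0.51 (SE 0.15) in PH and -0.50 (SE 0.15) in WH in the first step, and 1.30 (SE 0.15) in PH and 0.75 (SE 0.15) in WH in the last. In the middle step the crosses differed in sign, with -0.12 (SE 0.15) in PH and 0.43 (SE 0.14) in WH, or PH minus WH -0.54 (SE 0.19). Fast partners of TNNC1, MYL2 and MYBPC1 carried no single gene name in the annotation used here and were not analysed.

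The crosses were first compared in their change from d 60 to the newborn, the change in PH minus the change in WH. This passed for 3 of 7 genes, beside 13.2% of all features (2198 of 16659). TNNC1 rose more in PH, by 0.77 (SE 0.24, adjusted p = 0.0399), and MYBPC1 and CA3 rose less in PH, by -1.19 (SE 0.33, adjusted p = 0.0263) and -1.02 (SE 0.32, adjusted p = 0.0414). TNNT1, MYL2, CSRP3 and MB had 0.25, 0.19, -0.42 and 0.42, none past the threshold. PLN, outside the 7, had -1.66 (adjusted p = 0.0225). In the same comparison 2 of 6 matrix markers and 1 of 6 adipocyte markers, SCD, were lower, and their part in the result was not tested. Step by step, 0 of the 7 passed with limma and at most 2 features did, while 2, 1 and 3 of the 7 had an unadjusted p under 0.05 in the 3 steps. The share of all features under this unadjusted cut-off was not counted, so these counts have no background to be read against.

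All 3 of these calls depended on the setting. Of the 7 genes 0 passed with array 2 of every link left out, with array 3 left out, or without centring. Without array 2 the values were 0.30 for TNNC1, -0.77 for MYBPC1 and -1.26 for CA3, with adjusted p of 0.631, 0.452 and 0.105. Without array 3 they were 0.79, -0.92 and -0.60, with adjusted p of 0.229, 0.237 and 0.412. CA3 was also lost without array 1 (-1.18, adjusted p = 0.0597) and without array 4 (-1.02, adjusted p = 0.0510). With arrays scaled to one spread TNNC1 (0.66, adjusted p = 0.0982) and CA3 (-1.18, adjusted p = 0.0548) were lost.

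The arrays on which PH and WH met show the spread behind this. At d 60 the log2 ratios of PH over WH were 0.07, -1.02 and -0.51 for TNNC1, -0.07, 0.78 and 0.74 for MYBPC1 and -0.68, 0.34 and 0.48 for CA3. In the newborn they were -0.16, 0.81 and 0.69 for TNNC1, 0.48, -1.04 and -1.01 for MYBPC1 and -1.32, -0.06 and -1.13 for CA3. For TNNC1 and MYBPC1 arrays 2 and 3 lay on the same side of 0 within each stage and array 1 on the other. These sides were reversed between d 60 and the newborn. The dyes were reversed as well, with PH in Cy3 at d 60 and in Cy5 in the newborn. In these single values dye and stage cannot be told apart, and the part of dye was not tested. Over all features array 1 correlated with arrays 2 and 3 at 0.06 and 0.06 at d 60 and at -0.16 and 0.07 in the newborn, while arrays 2 and 3 correlated at 0.47 and 0.49. These correlations are across features of arrays of 1 link, as a description. What sets array 1 apart was not tested.

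At single stages 0 of the 7 genes passed between the crosses with all arrays kept and weighted equally. That was 0 of 7 at d 60, beside 0.048% of features, and 0 of 7 in the newborn, beside 0.276%, while no feature passed at d 135 or d 195 with limma. At an unadjusted p under 0.05 there were 3 of the 7 at d 60 (TNNC1, MYBPC1 and MB), MB at d 195, and MYBPC1 and CA3 in the newborn. The share of all features at this unadjusted cut-off was not counted, and the shares above are for adjusted p only. The nearest to the threshold was CA3 in the newborn, at -0.90 (SE 0.25, adjusted p = 0.0825). With array weights TNNC1 (-0.50, adjusted p = 0.0301) and MYBPC1 (0.68, adjusted p = 0.0206) passed at d 60, and without array 1 of every link MYBPC1 (-1.07, adjusted p = 0.0280) passed in the newborn. With array 1 of both cross links left out, an alternative chosen after seeing the data, TNNC1 at 0.60 (adjusted p = 0.0350) and MYBPC1 at -1.01 (adjusted p = 0.0144) passed in the newborn, and the differences of change were 1.21, -1.77 and -1.11 for TNNC1, MYBPC1 and CA3. The alternatives also changed how many of all 16659 features passed. Between settings this ran from 0 to 1980 at d 60 and from 0 to 1992 in the newborn. The shares above therefore do not apply to these calls.

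**Figure D3:**
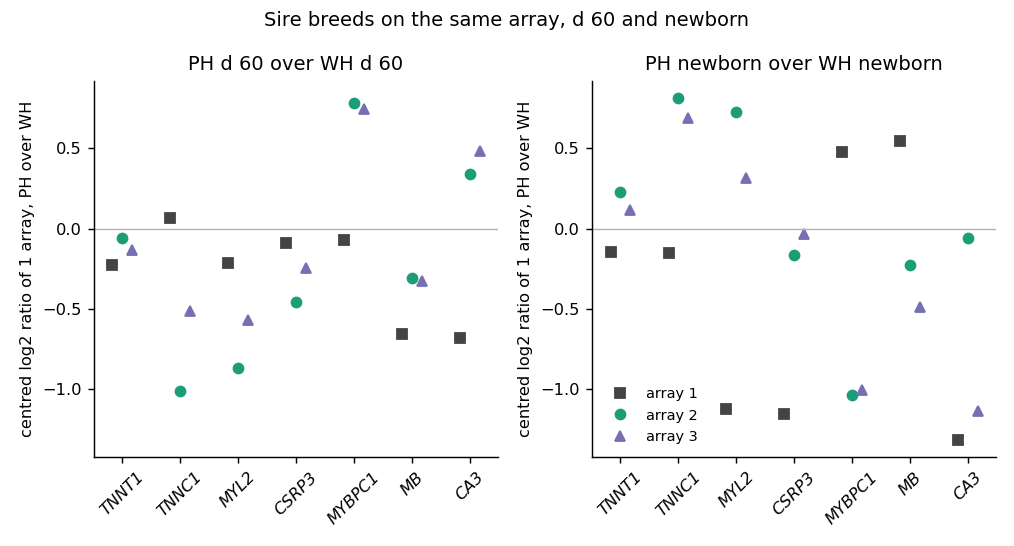
Centred log2 ratio of each array, PH over WH (y axis), for the 7 genes (x axis) at d 60 and in the newborn, 1 point per array, marked by array number. Array 1 lies away from arrays 2 and 3 for several genes, with MYBPC1 at 0.48 against -1.04 and -1.01 in the newborn. PH was in Cy3 at d 60 and in Cy5 in the newborn.

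In the later crossbred animals the 7 genes lay between 0.14 and 0.82 from T1 to T3. T3 over T1, as the mean of both crosses, TNNC1 and MYL2 were higher, 2 of 7 genes, beside 0.197% of 17253 features. From T1 to T2 it was TNNC1 and MB, 2 of 7, beside 2.8%. From T2 to T3 TNNC1 and MYL2 were higher, 2 of 7, beside 6.73%, and MB was lower, 1 of 7, beside 3.98%. TNNT1, CSRP3, MYBPC1 and CA3 passed in none of these.

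TNNC1, the slow troponin C, was the gene that rose in both steps as the mean of both crosses. Within a cross, the first step did not pass in WH (0.17, adjusted p = 0.402, limma). The second did not pass in PH (0.30, adjusted p = 0.163). T2 over T1, its arrays gave log2 ratios of 0.65 and 0.73 in PH and 0.23 and 0.18 in WH. T3 over T2, they gave 0.27 and 0.19 in PH and 0.57 and 0.45 in WH. All 8 values were above 0. The PH minus WH difference of the second step, -0.13, did not pass (adjusted p = 0.874, limma). The means of both crosses were 0.45 (SE 0.10, adjusted p = 0.0151) and 0.37 (SE 0.10, adjusted p = 0.0278), and T3 over T1 0.82 (SE 0.14, adjusted p = 0.0108). All 13 TNNC1 ESTs were above 0 from T1 to T3, between 0.36 and 1.10. The change to T2 was larger in PH, at 0.72, than in WH, at 0.17, a difference of 0.55 (SE 0.12, adjusted p = 0.0208), 1 of 7 genes beside 1.13% of features. In the same comparison 3 of 6 matrix markers (median -0.67), 3 of 6 adipocyte markers (median -1.17) and 1 of 3 endothelial and mural markers were lower in PH minus WH, and their part in the result was not tested. The call was lost without array 1, 2 or 3 of every link, with values of 0.61, 0.46 and 0.51 and adjusted p of 0.220, 0.575 and 0.0665.

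MYL2, whose fetal change of 0.67 had not passed, rose here as the mean of both crosses. T3 over T2 its arrays gave 0.41 and 0.24 in PH and 0.57 and 0.57 in WH, and T2 over T1 0.04 and 0.35 in PH and 0.46 and 0.30 in WH. The step to T3 was 0.45 (SE 0.10, adjusted p = 0.0108, limma), and T3 over T1 0.73 (SE 0.15, adjusted p = 0.0200). By cross, the step to T3 passed in WH (0.52, adjusted p = 0.0111) and not in PH (0.38, adjusted p = 0.0842). T3 over T1 passed in neither cross alone, at 0.69 in PH and 0.78 in WH (adjusted p = 0.0509 and 0.0683). The 31 MYL2 ESTs lay between 0.47 and 1.36 from T1 to T3.

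MB went up and down again. Its ratios were 1.13 and 0.52 in PH and 0.91 and 0.40 in WH for T2 over T1. For T3 over T2 they were -0.81 and -0.53 in PH and -0.45 and -0.62 in WH. Every array of the first step was thus above 0 and every array of the second below, and PH and WH overlapped in both. The means were 0.74 (SE 0.10, adjusted p = 0.00279) and -0.60 (SE 0.10, adjusted p = 0.00248), and T3 over T1 myoglobin was at 0.14 (adjusted p = 0.972).

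Leaving out array 1 or array 2 of every link leaves a single array for each step in time. The T3 over T1 calls of TNNC1 and MYL2 were then lost, with values of 0.77 and 0.73 without array 1, and of 0.86 and 0.74 without array 2 (adjusted p of 0.625 to 0.856). The TNNC1 step to T3 was also lost without centring (0.38, adjusted p = 0.0522) and with scaled arrays (0.34, adjusted p = 0.0520), and MYL2 at T3 over T1 with scaled arrays (0.67, adjusted p = 0.0829). The step calls of TNNC1 and MYL2, and of MB to T2, were lost without array 1 and without array 2, and that of MB to T3 without array 2 (-0.63, adjusted p = 0.165). MB to T2 was 0.46 without array 1 and 1.02 without array 2 (adjusted p = 0.224 and 0.0504).

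**Figure D4:**
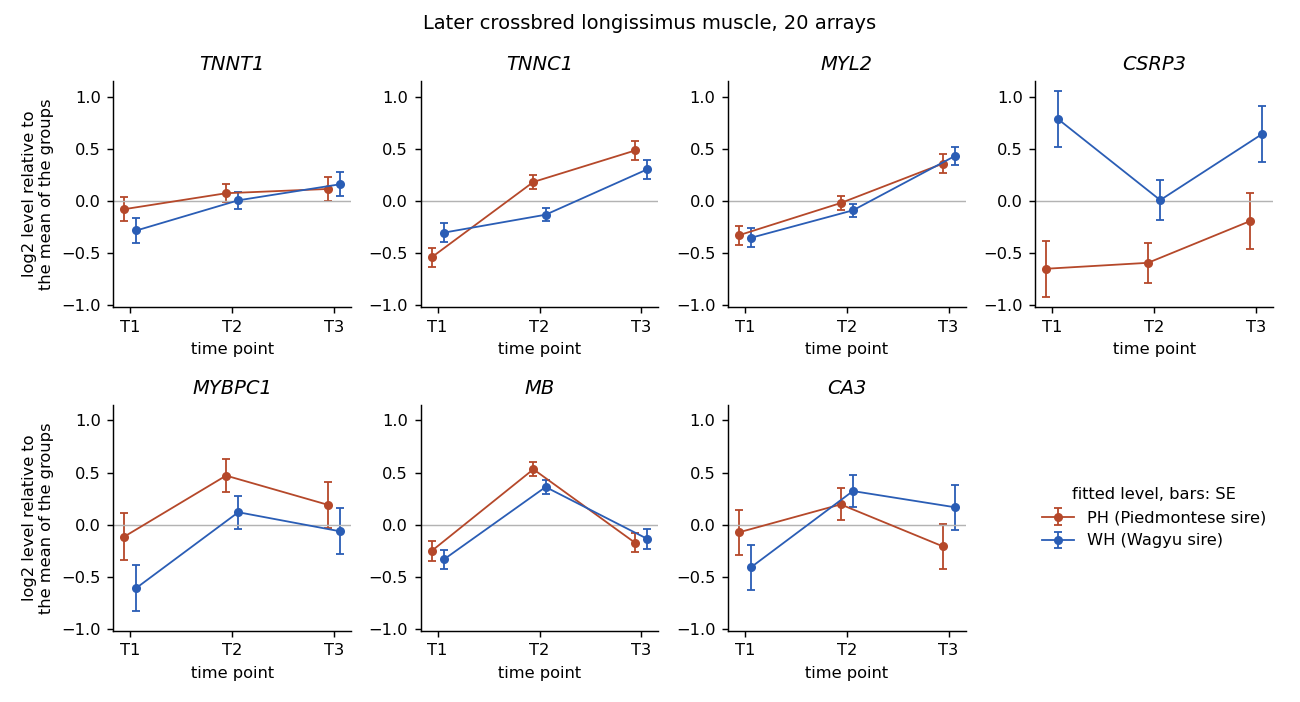
Fitted levels of the 7 genes on the log2 scale (y axis, relative to the mean of the 6 later groups) at T1, T2 and T3 (x axis), for PH and WH, with bars for the SE. TNNC1 rises over both steps, MB peaks at T2, and CSRP3 lies at -0.65 in PH and 0.78 in WH at T1.

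Of the 8 fast fibre genes measured, 5 were lower at T3 than at T2, with a median of -0.40, among them ACTN3, the fast alpha-actinin, at -0.51. From T1 to T2 MYOZ1 alone of the 8 passed, at 0.48. Of the 4 other slow genes only ATP2A2 passed, at 0.76 from T1 to T2. TNNT1 minus TNNT3 was -0.00 (SE 0.13) from T1 to T2 and 0.41 (SE 0.13) from T2 to T3. Matrix markers were lower at T3 than at T2 in 4 of 6, with a median of -0.68, while from T1 to T2 the crosses differed, with 3 of 6 lower in PH (median -0.46) and 2 of 6 higher in WH (median 0.30). Of the adipocyte markers 2 of 6, SCD and FABP4, were higher at T2 than at T1 as the mean of both crosses, with 1 of 6 lower in PH and 3 of 6 higher in WH. Their part in the result was not tested.

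Between the crosses CSRP3 stood out at T1. Its arrays gave PH over WH log2 ratios of -0.82, -1.03, -1.91 and -1.97 at T1, of -0.795, -0.995, -0.184 and -0.544 at T2 and of -1.51, -1.67, 0.15 and -0.19 at T3. It was lower in PH on all 4 arrays at T1 and T2 and on 3 of 4 at T3. The T1 difference was -1.43 (SE 0.29, adjusted p = 0.0305), 1 of 7 genes beside 0.753% of features. At T2 it was -0.60 (adjusted p = 0.269) and at T3 -0.83 (adjusted p = 0.195), and 0 of 7 genes passed there, beside 3.28% and 0.539%. At an unadjusted p under 0.05, TNNC1 (0.31) and CSRP3 counted at T2 and CSRP3 at T3. The share of all features at this unadjusted cut-off was not counted. TNNC1 at T2 passed without centring (0.39, adjusted p = 0.0407), with scaled arrays (0.35, adjusted p = 0.0228), with array weights (0.32, adjusted p = 0.0154) and with ratios at the limit kept (0.31, adjusted p = 0.04995). CSRP3 at T3 passed with array weights (-1.18, adjusted p = 0.0313). Between the alternatives, 101 to 1054 of all 17253 features passed at T2 and 0 to 363 at T3. At T2, 3 of 6 matrix markers and 4 of 6 adipocyte markers were lower in PH, and their part was not tested. In the T1 comparison matrix markers passed in 0 of 6 and adipocyte markers in 1 of 6, SCD, higher in PH. The CSRP3 call at T1 was lost with any 1 array number left out, at -1.68, -1.51, -1.28 and -1.35 without arrays 1 to 4 (adjusted p of 0.0512 to 0.526), with scaled arrays (-1.58, adjusted p = 0.0523) and with array weights (-1.42, adjusted p = 0.104).

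Of the 4 arrays of a comparison of the crosses, arrays 1 and 2 had opposite dyes, and so did arrays 3 and 4. At T1 and T3 the arrays of such a pair lay nearer to each other than the pair means did for 6 of the 7 genes, all but MB. For TNNT1 at T1 the values were nearly equal, at 0.352 within a pair and 0.353 between pair means. At T2 this held for 4 of 7, and not for TNNT1, MYBPC1 and MB. MYBPC1 gave 1.11, 1.06, -0.11 and -0.07 at T1 and -0.42, -0.34, 0.91 and 0.92 at T3, and CA3 0.90, 1.15, -0.58 and -0.35 at T1. Over the 21 combinations of gene and time the difference within a pair had a median of 0.22 and at most 0.36, while the pair means differed by a median of 0.35 and up to 1.57. Across all features the correlation was 0.04 to 0.57 within the 6 pairs and -0.62 to 0.27 in the 12 others. At T2 it was 0.18 and 0.04 within the pairs, below the 0.22 and 0.27 of arrays 1 with 3 and 2 with 4, which share a dye orientation. The labels do not say whether the arrays of a pair share RNA. With each pair averaged and counted as 1 array, an alternative chosen after seeing the data, CSRP3 at T1 was at -1.45 and did not pass (adjusted p = 0.913). The TNNC1 difference of change was then 0.56 (adjusted p = 0.376), and MYL2 at T3 over T1 had an adjusted p of 0.0751, while TNNC1 still passed there (adjusted p = 0.0480).

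**Figure D5:**
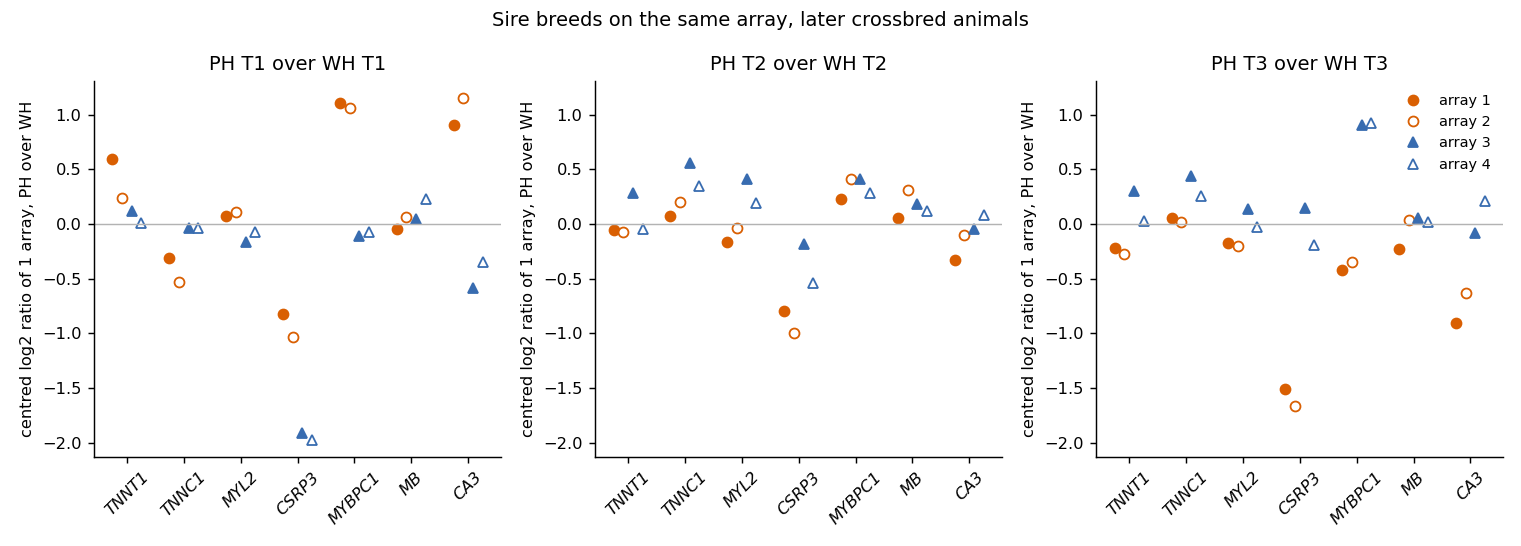
Centred log2 ratio of each array, PH over WH (y axis), for the 7 genes (x axis) at T1, T2 and T3, 1 point per array, marked by array number. At T1 MYBPC1 lies at 1.11 and 1.06 on arrays 1 and 2 and at -0.11 and -0.07 on arrays 3 and 4, while at T2 its 4 arrays lie between 0.22 and 0.41.

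The 7 genes did not run as a single group. Over the 25 fetal arrays, TNNT1 correlated with MB at 0.80 and with TNNC1 at 0.79, CSRP3 with MB at 0.77, and MYBPC1 with CA3 at 0.73, while TNNT1 and CA3 had -0.26 and MYL2 and MYBPC1 -0.24. Over the 20 later arrays the pair MYBPC1 and CA3 again had 0.74, and TNNT1 and MB had 0.28. These are descriptions over arrays that share groups and dyes. The named genes outside the 7 whose fetal log2 ratios were most like theirs, by Pearson correlation over 25 arrays, were LDB3 (0.91) and YBX3 (0.88) for TNNT1, XIRP1 (0.88) and COX7B (0.88) for TNNC1, and CREG1 (0.99) and MUSTN1 (0.75) for MYL2. For CSRP3 they were HSPB8 (0.91) and MYOZ1 (0.86), for MYBPC1 PDE4DIP (0.81) and CDH13 (0.75), for MB ASB12 (0.98) and CYC1 (0.93), and for CA3 CFB (0.82) and C1R (0.74). LDB3, XIRP1 and MYOZ1 encode proteins of the Z-disc or of actin-based structures, COX7B and CYC1 are parts of the respiratory chain, HSPB8 is a small heat shock protein, and CFB and C1R are complement proteins. Several of these, such as CREG1, ASB12 and CFB, rest on 2 elements.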

How the data were processed

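The authors deposited log2 ratios, likely of Cy5 over Cy3, for 21168 elements, from slides read with GenePix instruments. Which editing steps these ratios had been through is not given in the sources used here. The 25 fetal arrays, 20 later arrays and 1 self-hybridisation were used, and 24 other columns of the table and 1 other table were not. Ratios at the table's upper limit were treated as missing, each array's median was subtracted, and the elements carrying 1 gene name were combined into a mean for that gene. Features with values on at least 20 of 25, or 16 of 20, arrays were kept (16659 and 17253).

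The log2 ratios were fitted with limma 3.58.1 in R 4.3.3, with the Cy5 group as plus 1, the Cy3 group as minus 1 and a dye intercept. Residual degrees of freedom were 17 and 14, and moderation added 3.53 and 3.23. The Benjamini-Hochberg adjustment ran over all features of a comparison, and an adjusted p under 0.05 passed. The fit was tested on simulated data. Alternatives changed the centring, array scale, dye term, array weights, missing values, ratios at the limit, averaging of elements and a replicate block, and left out each array number. A further 3 were added after seeing the data. Named are the 7 genes, TNNT3, up to 4 members of each list by smallest p and the 2 most similar genes of each. Members and lists were chosen with earlier results of these data known. Of 6 carbonic anhydrases and oxygen carriers and of 2 LIM proteins listed, 0 were measured. On arrays the number of slides limits the precision.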

Additional observations from a re-analysis of the deposited data

Results flagged for a closer look

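The change from d 60 to the newborn differed between the crosses for 3 of the 7 genes, with PH minus WH values of 0.77 for TNNC1, -1.19 for MYBPC1 and -1.02 for CA3 on the log2 scale. The change from T1 to T2 differed for TNNC1, by 0.55. In comparisons of PH with WH on 4 later arrays, 1 array stood far from the others for 2 genes. TNNT1 at T2 had 0.28 on array 3 against -0.07 to -0.04 on the other arrays, and MB at T3 had -0.23 on array 1 against 0.02 to 0.05. A far array was looked for in 28 groups of 4 arrays, and chance alone marks about 1 in 20.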

How the results depend on the processing

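Of 67 called results of the 7 genes, 703 of 737 values under alternatives other than leaving out an array number kept direction and call, and 34 lost the call. With an array number left out, 204 of 268 kept it and 64 lost it. Of 178 results that were not called, 39 values gained a call under those alternatives and 5 with an array number left out. No called result changed sign. The count of genes whose change from d 60 to the newborn differed between the crosses, 3 as reported, was 0 without centring, 1 with arrays scaled to one spread and 0 to 2 with an array number left out. The count for T3 over T1, 2 as reported, was 1 with scaled arrays, 1 with the paired arrays of the cross comparisons averaged, and 0 to 2 with an array number left out. For PH over WH at T1, 1 as reported, it was 0 with scaled arrays, array weights, averaged pairs or any array number left out. For the newborn over d 60, 5 as reported, it was 4 to 7. The counts of all features called moved too, for the difference of change from 2198 to between 0 and 4836, for PH over WH from 8 to between 0 and 1980 at d 60, from 46 to between 0 and 1992 in the newborn, from 130 to between 0 and 286 at T1, from 566 to between 101 and 1054 at T2 and from 93 to between 0 and 363 at T3, for T3 over T1 from 131 to between 0 and 204, and for the difference of change to T2 from 195 to between 67 and 195. The cause was not tested.

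Array numbers were not taken as pairs. Arrays of the same number correlated in their deviations at -0.42 to 0.47 (median 0.12) in the fetal set and at a median of 0.03 in the later set, against medians of -0.05 and -0.01 for other pairs. Of the 8 fetal arrays numbered 2, 7 held the fewest values, and leaving out array 2 lost 29 calls, against 20 and 12 for arrays 1 and 3. With the number as a replicate block, 3 calls were lost, CA3 in the difference of change (-1.02, adjusted p = 0.0653), MYBPC1 in the newborn over d 60 (0.77, adjusted p = 0.0770) and CSRP3 in WH d 135 over d 60 (0.92, adjusted p = 0.0604), and 3 genes became 2 in the difference of change. With 2 arrays for each later step in time and 3 or 4 for each fetal link, the number of arrays limits these calls.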
